A study of Homo sapiens with 18 samples.

Results

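The replication-dependent histone genes encode the linker histone H1 and the core histones H2A, H2B, H3 and H4 that package newly copied DNA. They were taken as every row of the raw gene count table whose Ensembl gene ID carries a symbol of the form H1-1 to H1-6, H2AC, H2BC, H3C or H4C followed by a number, with pseudogenes left out. The rule found 34 genes among the 57820 gene IDs of the table, 33 through the gene ID table and 1, H2AC18, through its older name HIST2H2AA3. The reference held 69 symbols of these forms, and the other 35 matched no gene ID of the table and were not analysed here. By family the members were 6 H1, 9 H2A, 10 H2B, 5 H3 and 4 H4 genes, with 23 on chromosome 6, 10 on chromosome 1 and 1 on chromosome 12. The rule itself reads only names, but the family as a whole was selected on earlier results of these same libraries, replicate 6 among them, so the adjusted p-values below describe these libraries and are no independent support.

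Histone genes of this kind are transcribed mainly in S phase, under the coactivator NPAT, and their messages normally end in a conserved stem-loop instead of a poly(A) tail. The stem-loop binding protein SLBP binds that hairpin and directs 3′ cleavage, export, translation and decay of the message. Many of the same genes also give longer polyadenylated transcripts that run past the stem-loop, which are the ones a library built on poly(A) tails can capture. The sources used here do not state whether poly(A) RNA was selected or ribosomal RNA depleted.

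All 18 libraries came from MDA-MB-231 cells, an established human breast cancer line with a mesenchymal expression profile, wild type in every group and grown in L-15 medium with serum and L-glutamine. Cells were lipofected with siRNA and harvested after 72 h, and each library was built from 500 ng of total RNA. The groups were siRagC1 (6 libraries), siRagC2 (6 libraries) and siCtrl (6 libraries), where siRagC1 and siRagC2 are 2 siRNAs against RagC (gene RRAGC), a Rag GTPase that holds the growth kinase complex mTORC1 at the lysosome, and siCtrl is the control siRNA. The question was how expression responds when mTORC1 is held down through RagC. Replicates 1 and 2 of each group carry library codes of the series D1103 and replicates 3 to 6 codes of the series D1221; the labels do not say what a code series is, and they do not say whether replicates were separate cultures, so each p-value reflects only how far these libraries scatter.

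The members whose annotated GENCODE 29 transcripts hold the 16-base stem-loop are shown first by those of them with the highest counts, because the hairpin is where the processed histone message would end. It was found as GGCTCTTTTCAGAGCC in 11 members and as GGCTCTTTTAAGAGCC in 2 members, H2BC5 and H2BC4, of the 34. In the 5 sequences below the capitals mark the stem-loop letters, with 6 bases on each side in lower case.
H2AC6: cccaaaGGCTCTTTTCAGAGCCccccta
H2BC5: cccaaaGGCTCTTTTAAGAGCCacgcat
H2BC21: tccaaaGGCTCTTTTCAGAGCCacccac
H2BC4: cccaaaGGCTCTTTTAAGAGCCacccag
H2BC15: cccaaaGGCTCTTTTCAGAGCCactcag
For each of these 13 members, the transcript with the letters that reached furthest past them was taken. Transcripts of the same gene without the letters were left out. In 9 of the 13 members the transcript taken went on for more than 100 bases after the hairpin. In the other 4 it ended within 100 bases. In that transcript H2AC6 had 1128 annotated bases beyond the stem-loop, H2BC21 had 1729, H2BC15 had 377, H2BC4 had 116 and H2BC5 had 39. The annotated transcripts of H2BC5 together hold 821 different 50-base stretches, so H2BC5 also has annotated sequence outside this 496-base transcript. Only hairpins with the same stem letters were searched for, and stem-loops with other letters were not. Where the letters were not found, as for H2BC12, H1-2 and H2BC11, these letters alone are absent from the annotated transcripts. That does not show that a hairpin is missing.

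The promoters of 4 of the most counted members are shown as examples. These members passed the test between siRagC1 and siRagC2 without replicate 6 and were picked because they share CCAAT and TATAAA. They do not stand for the other members that passed. Each window is the 150 bases before the RefSeq start in GRCh38.p14, and capitals mark ATTTGCAT (the octamer found in H2B promoters), CCAAT and TATAAA on either strand.
H2BC12, chr6:27146859-27147008, - strand: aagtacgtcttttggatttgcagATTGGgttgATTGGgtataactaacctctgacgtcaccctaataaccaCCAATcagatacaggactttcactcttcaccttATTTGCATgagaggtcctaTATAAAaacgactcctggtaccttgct
H2BC5, chr6:26157971-26158120, + strand: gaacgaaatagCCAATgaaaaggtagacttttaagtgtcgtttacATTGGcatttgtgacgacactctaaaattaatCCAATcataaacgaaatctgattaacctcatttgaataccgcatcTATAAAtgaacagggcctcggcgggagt
H2AC6, chr6:26124022-26124171, + strand: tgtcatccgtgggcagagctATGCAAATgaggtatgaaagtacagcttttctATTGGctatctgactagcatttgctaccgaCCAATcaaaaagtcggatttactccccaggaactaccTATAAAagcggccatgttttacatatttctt
H2BC11, chr6:27132796-27132945, - strand: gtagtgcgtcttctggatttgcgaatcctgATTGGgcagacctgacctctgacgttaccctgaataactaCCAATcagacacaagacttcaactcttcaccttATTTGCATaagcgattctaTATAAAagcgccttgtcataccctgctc
Over windows from 250 bases before to 50 bases after the start, ATTTGCAT was present in 13 of the 32 members with a promoter entry (40.6%) and in 598 of 27305 genes (2.19%). CCAAT was present in 29 of the 32 members (90.6%) and in 39.7% of all genes. TATAAA was present in 23 of the 32 members (71.9%) and in 14% of all genes. H4C8 held none of the 3 motifs in this window, and H1-2 held CCAAT alone. H1-2 is not shown above, although it had more counts than H2BC11 and passed the same test. A match is a run of letters and not a mapped binding site.

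RRAGC, the targeted gene, was low in both knockdowns. It had 18.8, 12.3, 31.7, 25.4, 23.3 and 31.9 CPM (reads counted for a gene, scaled to library size with TMM factors) in siRagC1 replicates 1 to 6, and 19.3, 21.6, 40.8, 30.4, 32.6 and 21.8 CPM in siRagC2 replicates 1 to 6, against 67.9, 60.9, 62.2, 62.0, 60.6 and 61.1 CPM in siCtrl replicates 1 to 6. Every siRNA library lay below every siCtrl library. RRAGC fell by 1.43 on the log2 scale with siRagC1 (SE 0.166, edgeR adjusted p = 0.000373) and by 1.2 with siRagC2 (SE 0.166, adjusted p = 0.00135). Without replicate 6 it fell by 1.54 with siRagC1 (SE 0.19, adjusted p = 0.000877) and by 1.17 with siRagC2 (SE 0.187, adjusted p = 0.00444). Library totals ran from 14.8 M to 71.6 M counts. The mesenchymal marker VIM had 3790 to 5380 CPM across the 18 libraries. The luminal and epithelial markers were mixed. ESR1, PGR and FOXA1 reached at most 0.141, 0.164 and 0.0974 CPM, and CDH1 at most 1.6 CPM. The keratin KRT19 had 211 to 504 CPM, ERBB2 80.1 to 123 CPM, EPCAM 13.2 to 19.3 CPM and GATA3 6.18 to 10.3 CPM. Of the markers of other cell types, CD3E reached at most 0.0487 CPM, PTPRC 0.774 CPM and CD14 1.05 CPM.

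Most genes that differed between the siRNAs in replicates 1 to 5 stood the other way round in replicate 6. The histone gene results are therefore given with and without replicate 6. Without replicate 6, 510 genes outside the histone family differed between siRagC1 and siRagC2 (edgeR quasi-likelihood test, Benjamini-Hochberg adjusted p under 0.05). In replicate 6 itself, 454 of these 510 genes (89.0%) differed between the libraries labelled siRagC1 and siRagC2 in the opposite direction, and 56 in the same direction. The 290 genes higher in siRagC1 in replicates 1 to 5 had a median log2 ratio of -0.18 in replicate 6, and the 220 lower ones a median of 0.14. RRAGC also stood the other way round there, since it was lower in siRagC1 than in siRagC2 in each of replicates 1 to 5 and higher in replicate 6. The labels are kept as given, and why the siRNA libraries of replicate 6 stand the other way round was not tested.

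Few of the 34 members were counted in depth. In all 18 libraries 16 members had at least 1 count, 9 members had counts in some libraries, and 9 members (H1-3, H1-5, H2AC1, H2AC7, H2AC25, H2BC1, H2BC26, H3C4 and H3C14) had none. A count of 0 in the 566679705 summed counts allows a level of up to 0.00529 CPM, taking 3 counts as the limit and covering counting error only. H2BC12 took 44.5% of all counts assigned to members, and with H2AC6, H2BC5 and H1-2 the share came to 87.0%. The summed counts by family were 10022 for H1, 15558 for H2A, 51456 for H2B, 86 for H3 and 1607 for H4. These totals are not corrected for gene length and leave out the 35 symbols that matched no gene ID.

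**Figure D1:**
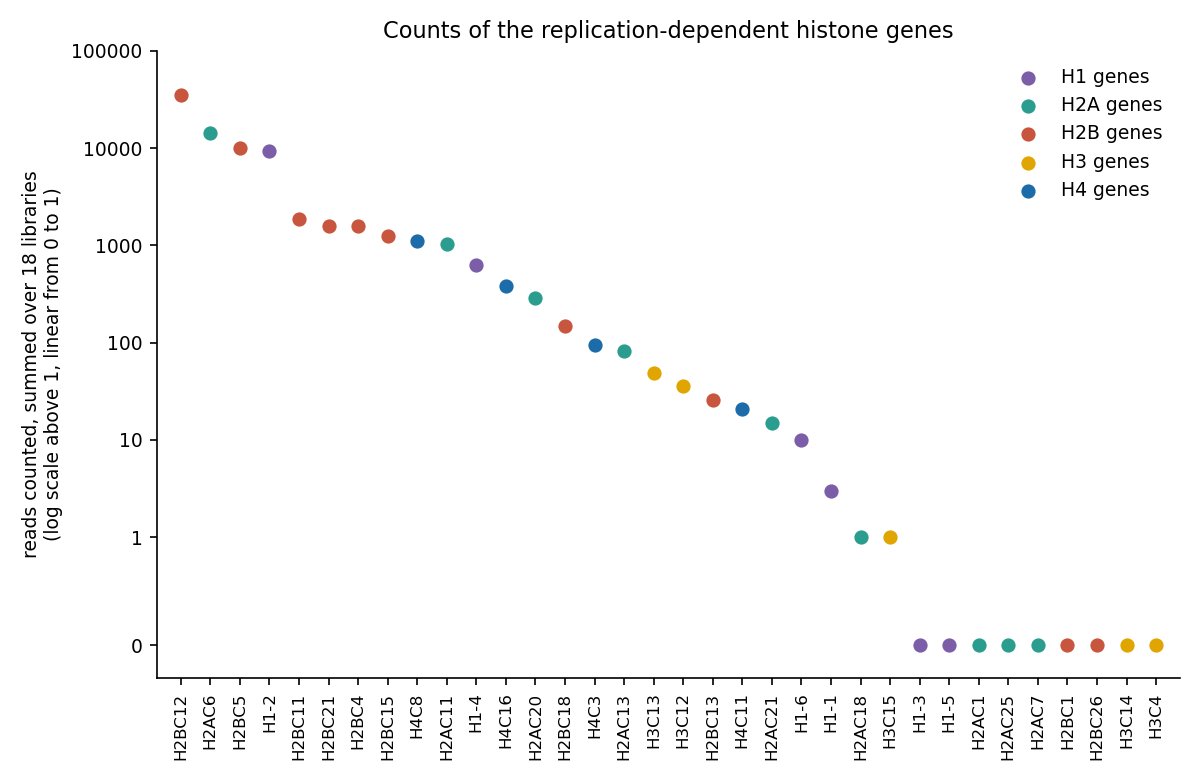
Reads counted for each of the 34 members, summed over all 18 libraries (vertical axis, logarithmic above 1 and linear from 0 to 1), coloured by histone family and ordered by count. H2BC12 stands highest with 35062 counts, the best counted H3 gene, H3C13, has 49, and 9 members lie at 0.

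Sequence shared between histone genes limits what a count can be assigned to. Of the 50-base stretches of the annotated H2BC12 transcripts, 74.1% also occur in another annotated gene, with 61.4% shared with H2BFS, so the level of H2BC12 is uncertain to that extent. The share was 0.421% for H2AC6, 5.36% for H2BC5, 4.65% for H2BC11 and 0% for H1-2 and H4C8. Among members at or near 0 counts it was 100% for H3C4, H3C14, H3C15 and H2AC18, and 98.0% for H2AC7, whereas for H1-3, H1-5, H2AC1 and H2BC1, also at 0 counts, it was 0%. The handling of reads that match several genes is unknown here.

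The summed level of the 34 members was higher with siRagC2 than with either other siRNA in replicates 1 to 5, and the library labelled siRagC1 was the highest of the 3 in replicate 6. In siRagC1 the sum was 119, 111, 110, 110 and 113 CPM in replicates 1 to 5 and 151 CPM in replicate 6. In siRagC2 it was 213, 189, 155, 170 and 174 CPM in replicates 1 to 5 and 109 CPM in replicate 6. In siCtrl it was 141, 130, 124, 128 and 121 CPM in replicates 1 to 5 and 116 CPM in replicate 6. In replicates 1 to 5 the ranges of the 3 groups did not overlap. Over all 6 replicates the means were 119 ± 16.2 CPM in siRagC1, 168 ± 34.9 CPM in siRagC2 and 127 ± 8.71 CPM in siCtrl (SD, n = 6 each), and the ranges overlapped. Without replicate 6 they were 113 ± 3.65 CPM in siRagC1, 180 ± 22.2 CPM in siRagC2 and 129 ± 7.74 CPM in siCtrl (SD, n = 5 each). Between same-numbered libraries the ratio of siRagC1 to siRagC2 was 0.557 to 0.712 in replicates 1 to 5 and 1.38 in replicate 6. These sums are a description with no test. In bulk RNA a change in the share of cells in S phase and a change in histone RNA per cell cannot be told apart, for a higher or a lower sum.

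**Figure D2:**
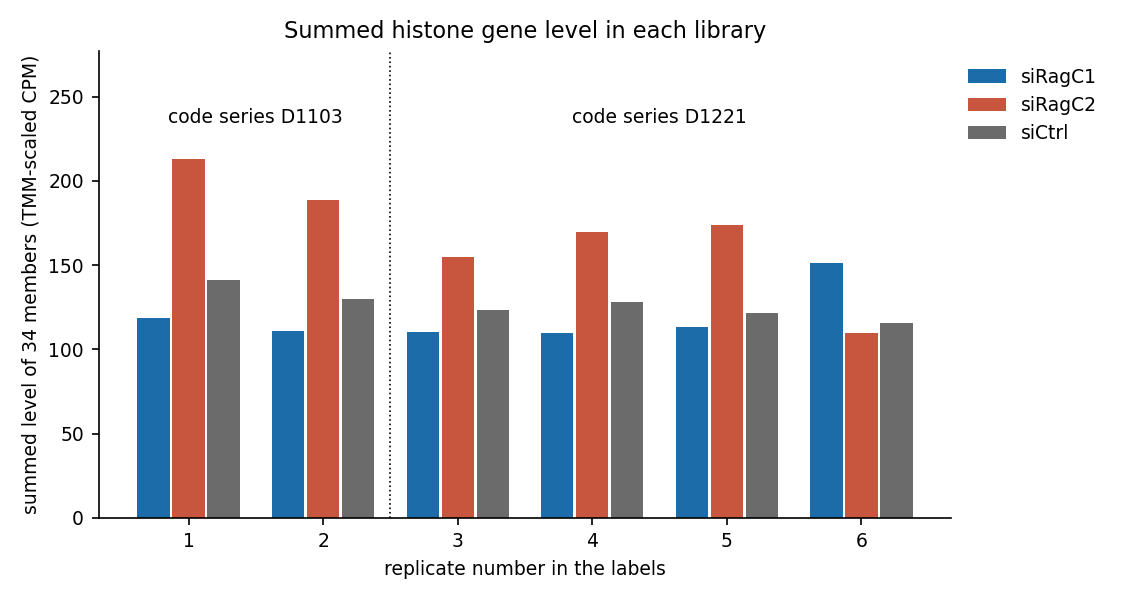
Summed level of the 34 members (TMM-scaled CPM, bars from 0) in each of the 18 libraries by replicate number, with siRagC1, siRagC2 and siCtrl side by side and the 2 code series divided by a dotted line. The siRagC2 bar is the tallest in replicates 1 to 5 (155 to 213 CPM), and in replicate 6 the siRagC1 bar is the tallest (151 CPM).

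Among the linker histones, which bind DNA between nucleosomes, H1-2 was the member counted in depth. H1-2 had 13.4, 14, 13.1, 12.4, 12.9 and 17.7 CPM in siRagC1 replicates 1 to 6, and 29.1, 23.6, 18.7, 20.7, 21.5 and 10.1 CPM in siRagC2 replicates 1 to 6, against 18.2, 16.5, 13.7, 14.8, 12.2 and 9.48 CPM in siCtrl replicates 1 to 6. In replicates 1 to 5 the siRagC2 libraries lay above all libraries of both other groups, while siRagC1 and siCtrl overlapped. In replicate 6 the library labelled siRagC1 was above every other siRagC1 library and the one labelled siRagC2 below every other siRagC2 library. H1-4 ran from 0.781 to 1.15 CPM in siRagC1, 0.824 to 1.21 CPM in siRagC2 and 0.911 to 1.47 CPM in siCtrl in replicates 1 to 5, with overlap of all groups, and had 1.24, 1.68 and 0.570 CPM in the siRagC1, siRagC2 and siCtrl libraries of replicate 6. H1-6, a histone known from testis, and H1-1 had 10 and 3 counts in all.

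The H2A genes, whose products pair with H2B in the nucleosome, were led by H2AC6. H2AC6 had 21.7, 18.5, 20.5, 22.2, 18.8 and 26.2 CPM in siRagC1 replicates 1 to 6, and 40.2, 35.9, 28.2, 31.2, 31.2 and 17.9 CPM in siRagC2 replicates 1 to 6, against 25.9, 20.3, 22.9, 21.5, 20.9 and 21.5 CPM in siCtrl replicates 1 to 6. All siRagC2 libraries of replicates 1 to 5 lay above every siRagC1 and siCtrl library of those replicates, and the siRagC2 library of replicate 6 was the lowest of all 18. H2AC11 ran from 1.25 to 1.95 CPM in siRagC1, 1.71 to 2.35 CPM in siRagC2 and 1.1 to 2.19 CPM in siCtrl in replicates 1 to 5, with overlap of the 3 groups. H2AC20 ran from 0.451 to 0.715 CPM in siRagC1, 0.321 to 0.739 CPM in siRagC2 and 0.274 to 0.612 CPM in siCtrl over all 6 replicates, with overlap of the 3 groups.

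H2B genes made up most of the counts assigned to members, with H2BC12 first. H2BC12 had 51.4, 49.6, 49.3, 47.3, 54.1 and 69.3 CPM in siRagC1 replicates 1 to 6, and 88.9, 79.8, 69.0, 74.8, 77.8 and 51.4 CPM in siRagC2 replicates 1 to 6, against 58.6, 60.2, 57.6, 59.0, 58.0 and 56.5 CPM in siCtrl replicates 1 to 6. In replicates 1 to 5 every siRagC1 library lay below every siCtrl library and every siRagC2 library above them. In replicate 6 the library labelled siRagC1 was within the siRagC2 range of replicates 1 to 5, and the one labelled siRagC2 within the siRagC1 range.

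H2BC5 had 17.4, 14.5, 12.7, 13.8, 12.6 and 16.6 CPM in siRagC1 replicates 1 to 6, and 30.6, 27.3, 19.3, 21.6, 21.1 and 12.1 CPM in siRagC2 replicates 1 to 6, against 20.6, 15.6, 13.4, 15.1, 13.2 and 12.3 CPM in siCtrl replicates 1 to 6. Its siRagC1 and siRagC2 libraries did not overlap in replicates 1 to 5, and its siRagC2 and siCtrl libraries did. H2BC11 had 1.85, 1.74, 2.31, 1.98, 2.69 and 5.07 CPM in siRagC1 replicates 1 to 6, and 5.07, 3.99, 3.93, 4.85, 5.64 and 2.89 CPM in siRagC2 replicates 1 to 6, against 3.59, 2.37, 3.01, 3.29, 3.26 and 3.47 CPM in siCtrl replicates 1 to 6. For H2BC11 the siRagC2 libraries of replicates 1 to 5 lay above all others of those replicates, and in replicate 6 the library labelled siRagC1 was the higher of the 2 siRNA libraries.

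The H2B genes with lower counts, H2BC21, H2BC4 and H2BC15, were also lower in siRagC1 than in siRagC2 in each same-numbered pair of replicates 1 to 5. H2BC21 ran from 1.94 to 2.56 CPM in siRagC1, 3.02 to 4.15 CPM in siRagC2 and 2.67 to 3.34 CPM in siCtrl in replicates 1 to 5, and had 2.7, 2.95 and 2.07 CPM in the siRagC1, siRagC2 and siCtrl libraries of replicate 6. H2BC21 was the one of the 9 members lower in siRagC1 than in siRagC2 in each of replicates 1 to 5 that was also lower in replicate 6. H2BC4 ran from 1.65 to 2.88 CPM in siRagC1, 2.15 to 4.85 CPM in siRagC2 and 2.12 to 3.16 CPM in siCtrl in replicates 1 to 5, so that its groups overlapped. H2BC15 ran from 1.32 to 2.04 CPM in siRagC1, 2.24 to 3.16 CPM in siRagC2 and 1.82 to 2.31 CPM in siCtrl in replicates 1 to 5, and had 2.78, 2.25 and 2.33 CPM in the siRagC1, siRagC2 and siCtrl libraries of replicate 6. H2BC18 had 149 counts and H2BC13 had 26 over all 18 libraries.

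The H3 and H4 members, whose products form the core tetramer, were counted little. Another 8 H3 and 11 H4 symbols matched no gene ID of the table, so nothing is said of those genes. The 5 H3 members had 86 counts in all, with 49 for H3C13 and 36 for H3C12, and none was tested. H4C8 ran from 1.17 to 1.83 CPM in siRagC1, 1.95 to 3.20 CPM in siRagC2 and 1.09 to 2.33 CPM in siCtrl in replicates 1 to 5, and had 2.21, 1.5 and 1.86 CPM in the siRagC1, siRagC2 and siCtrl libraries of replicate 6. Its siRagC1 and siRagC2 libraries did not overlap in replicates 1 to 5. H4C16, the member on chromosome 12, ran from 0.481 to 1.08 CPM in siRagC1, 0.504 to 1.01 CPM in siRagC2 and 0.548 to 0.914 CPM in siCtrl in replicates 1 to 5, and had 0.772, 0.751 and 0.932 CPM in the siRagC1, siRagC2 and siCtrl libraries of replicate 6. H4C3 had 95 counts and H4C11 had 21.

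**Figure D3:**
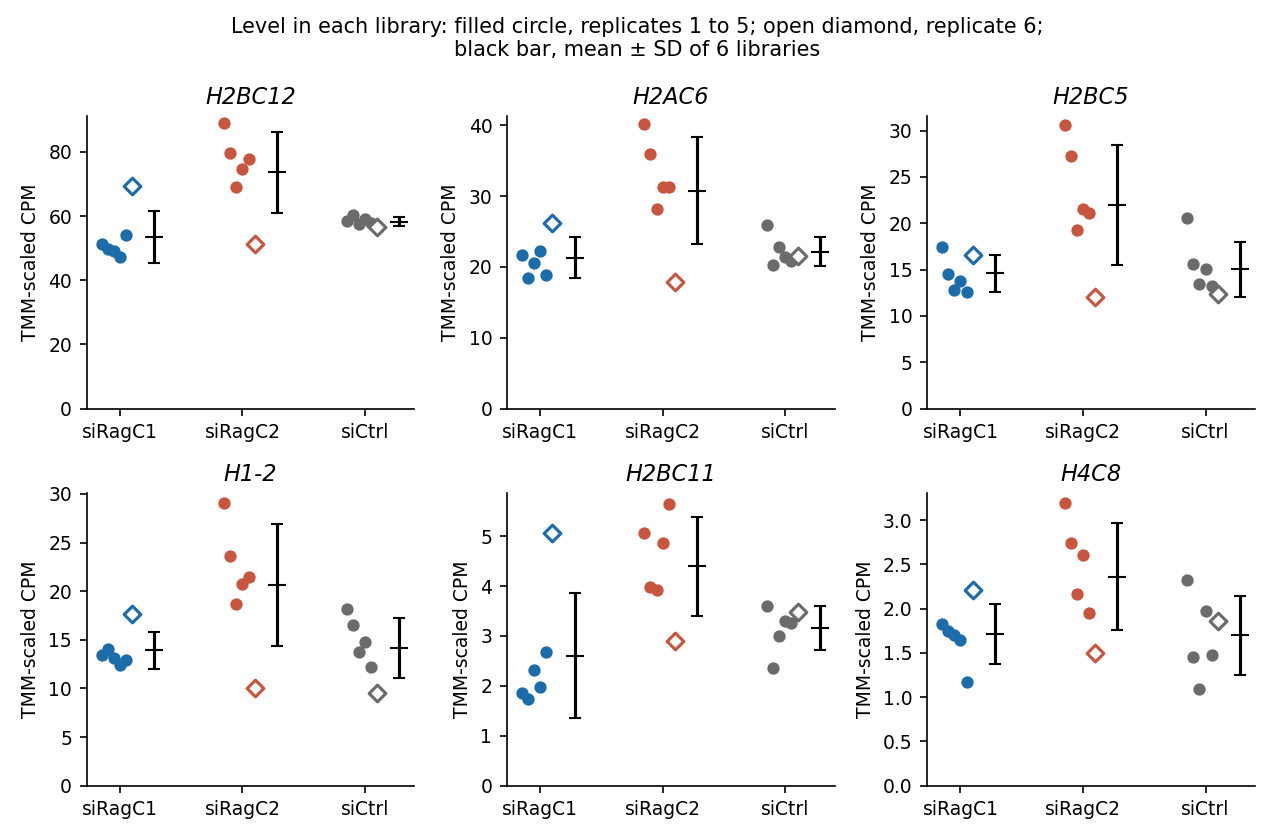
Level (TMM-scaled CPM, axes from 0) of 6 members in each library of siRagC1, siRagC2 and siCtrl, with replicates 1 to 5 as filled circles, replicate 6 as an open diamond, and the mean ± SD of all 6 libraries as a black bar. For H2BC12 the siRagC2 circles (69.0 to 88.9 CPM) lie above and the siRagC1 circles (47.3 to 54.1 CPM) below those of siCtrl, and the replicate 6 diamonds of the siRNAs stand the other way round.

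Both RagC siRNAs were compared with the same siCtrl libraries, so these 2 comparisons share their controls. Of the 34 members 13 passed the filter on low counts and were tested, and 21 did not. The 13 had to be counted in enough libraries to pass, so their numbers say nothing of the others.

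With siRagC1 no member differed from siCtrl over all 6 replicates, and in replicates 1 to 5 H2BC12 and H2BC11 were lower. Over all replicates 0 of 13 members passed the threshold in edgeR's quasi-likelihood test, beside 2.04% of all 15307 genes tested. An unadjusted p under 0.05 was reached by 0 members and by 2613 of all genes. DESeq2 also called 0 members, beside 772 of all genes. The median log2 fold change of the 13 was -0.08, beside 0.01 for all genes. Without replicate 6, H2BC12 fell by 0.22 on the log2 scale (SE 0.051, edgeR adjusted p = 0.0111) and H2BC11 fell by 0.56 (SE 0.145, adjusted p = 0.0232), beside 3.46% of all genes called lower. For both genes the ratio of same-numbered libraries was negative in each of replicates 1 to 5, the libraries behind these calls, and positive in replicate 6. H2AC20 was the one tested member with a positive fold change without replicate 6 (log2 0.23, SE 0.254, adjusted p = 0.639), and the median of the 13 was -0.18. Within code series D1103 alone and within D1221 alone, with or without replicate 6, 0 members were called. The medians were -0.23 in D1103, where 3.43% of all genes were called, 0.02 in D1221 (0.00666% of all genes) and -0.13 in D1221 without replicate 6 (0.146%). Leaving out only the library labelled siRagC1 replicate 6 gave 1 call, H2BC11, beside 2.44% of all genes called lower.

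With siRagC2 H2BC5 and H2AC6 rose over siCtrl over all 6 replicates, and 6 members rose in replicates 1 to 5. H2BC5 had a log2 fold change of 0.54 (SE 0.122, 1.46-fold, edgeR adjusted p = 0.0179) and H2AC6 one of 0.47 (SE 0.127, 1.39-fold, adjusted p = 0.044), which made 2 of 13 members called higher, beside 1.87% of all genes. At an unadjusted p under 0.05 there were 9 members, beside 2833 of all 15307 genes. The median of the 13 was 0.34, beside 0.01 for all genes. With the replicate number as a block H2BC5 was called (adjusted p = 0.0156) and H2AC6 was not (adjusted p = 0.0644), beside 3.66% of all genes called higher. Without the code series term neither was called (adjusted p = 0.195 for H2BC5 and 0.174 for H2AC6), and the genes called in all numbered 19 instead of 495. Leaving out any one of replicate numbers 1 to 5 from all 3 groups also gave 0 calls. In these fits 5 to 8 members had an unadjusted p under 0.05, beside 1846 to 2659 of all genes. Within D1103 alone 5 members were called higher (median 0.46), beside 3.82% of all genes. Within D1221 alone 0 were (median 0.28), beside 0.00666%, and within D1221 without replicate 6 there were 3 (median 0.34), beside 0.0664%. There were 0 calls without siRagC2 replicate 1, without siRagC2 replicate 4 or without siCtrl replicate 2. There was 1 call, H2BC5, without siRagC2 replicate 2, 3 or 5, without siCtrl replicate 1, 4, 5 or 6, and without siRagC1 replicate 1, 3 or 5. There were 4 calls (H2BC12, H2AC6, H2BC5 and H1-2) without the library labelled siRagC1 replicate 6, beside 2.11% of all genes called higher, and 4 without the one labelled siRagC2 replicate 6, beside 2.4%.

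Without replicate 6 the members higher with siRagC2 than with siCtrl came from 4 families. H2BC12 rose by 0.41 (SE 0.051, edgeR adjusted p = 9.98e-05), H2AC6 by 0.57 (SE 0.08, adjusted p = 0.000397) and H2BC5 by 0.61 (SE 0.077, adjusted p = 9.98e-05) on the log2 scale. H1-2 rose by 0.57 (SE 0.075, adjusted p = 0.000143), H2BC11 by 0.56 (SE 0.135, adjusted p = 0.0136) and H4C8 by 0.61 (SE 0.164, adjusted p = 0.0275). Each of these 6 was higher with siRagC2 in 5 of 5 same-numbered pairs, which are the same libraries that gave the calls. Called higher were 6 of 13 members, beside 3.48% of all 15481 genes tested without replicate 6. The median was 0.41 for the 13 and -0.003 for all genes. H1-4 had a log2 fold change of -0.38 (SE 0.178, adjusted p = 0.218) and H4C16 one of -0.18 (SE 0.252, adjusted p = 0.738), and neither passed.

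Between the siRNAs, siRagC1 against siRagC2, no member passed over all replicates and 9 of 13 were lower in siRagC1 in replicates 1 to 5. Over all 6 replicates edgeR's quasi-likelihood test called 0 members and 0 of 15307 genes (0% of all genes), while 9 members and 1187 genes had an unadjusted p under 0.05 and DESeq2 called 4 members lower, namely H2BC12, H2AC6, H2BC5 and H2BC21, beside 0.0719% of all genes. Without replicate 6 the 9 called lower were H2BC12, H2AC6, H2BC5, H1-2, H2BC11, H2BC21, H2BC4, H2BC15 and H4C8, beside 1.48% of all genes called lower. Of these 9, H2BC11 had the largest fitted difference, a log2 fold change of -1.12 (SE 0.136, adjusted p = 6.08e-05), which is 0.460-fold. H1-2 had one of -0.77 (SE 0.074, adjusted p = 4.02e-06), H2BC5 one of -0.74 (SE 0.076, adjusted p = 8.75e-06) and H2AC6 one of -0.70 (SE 0.08, adjusted p = 5.54e-05). H2BC12 had the smallest adjusted p, 3.93e-07, at a log2 fold change of -0.63 (SE 0.05). The other 4 lay between -0.69 and -0.56, with adjusted p-values of 0.00503 for H2BC15, 0.00733 for H2BC21, 0.0101 for H2BC4 and 0.0309 for H4C8.

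All 9 were lower with siRagC1 than with siRagC2 in 5 of 5 same-numbered pairs of replicates 1 to 5. They were called on these same replicates, so that count is no further support. In replicate 6, 8 of the 9 were higher with siRagC1. Of the 510 genes outside the family called without replicate 6, 454 (89.0%) also had the opposite direction there. The ratio for H2BC11 on the log2 scale was -1.41 to -0.74 in replicates 1 to 5 and 0.79 in replicate 6, and that for H1-2 was -1.11 to -0.51 in replicates 1 to 5 and 0.81 in replicate 6. H2AC11 had a fitted difference of -0.37 (SE 0.175, adjusted p = 0.293) without replicate 6, and H1-4, H4C16 and H2AC20 had 0.06, 0.09 and 0.26, with adjusted p-values of 0.908, 0.908 and 0.65. The median of the 13 was -0.46 over all replicates and -0.62 without replicate 6. Within D1103 alone 6 members were called lower (median -0.73), beside 0.6% of all genes. Within D1221 alone 0 were (median -0.31), beside 0% of all genes, and within D1221 without replicate 6 there were 5 (median -0.55), beside 0.0664%. Leaving out 1 library at a time gave 8 calls without siRagC1 replicate 6 (0.178% of all genes called lower), 4 without siRagC2 replicate 6 (0.0835%) and 0 without any other library. With only the 2 siRNA libraries of replicate 6 left out and its siCtrl library kept, 8 members were called lower, beside 0.534% of all genes, and H4C8 had an edgeR adjusted p of 0.0572. In the same fit 2 members were lower with siRagC1 than with siCtrl, beside 2.42% of all genes called lower, and 6 were higher with siRagC2, beside 2.72% called higher.

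**Figure D4:**
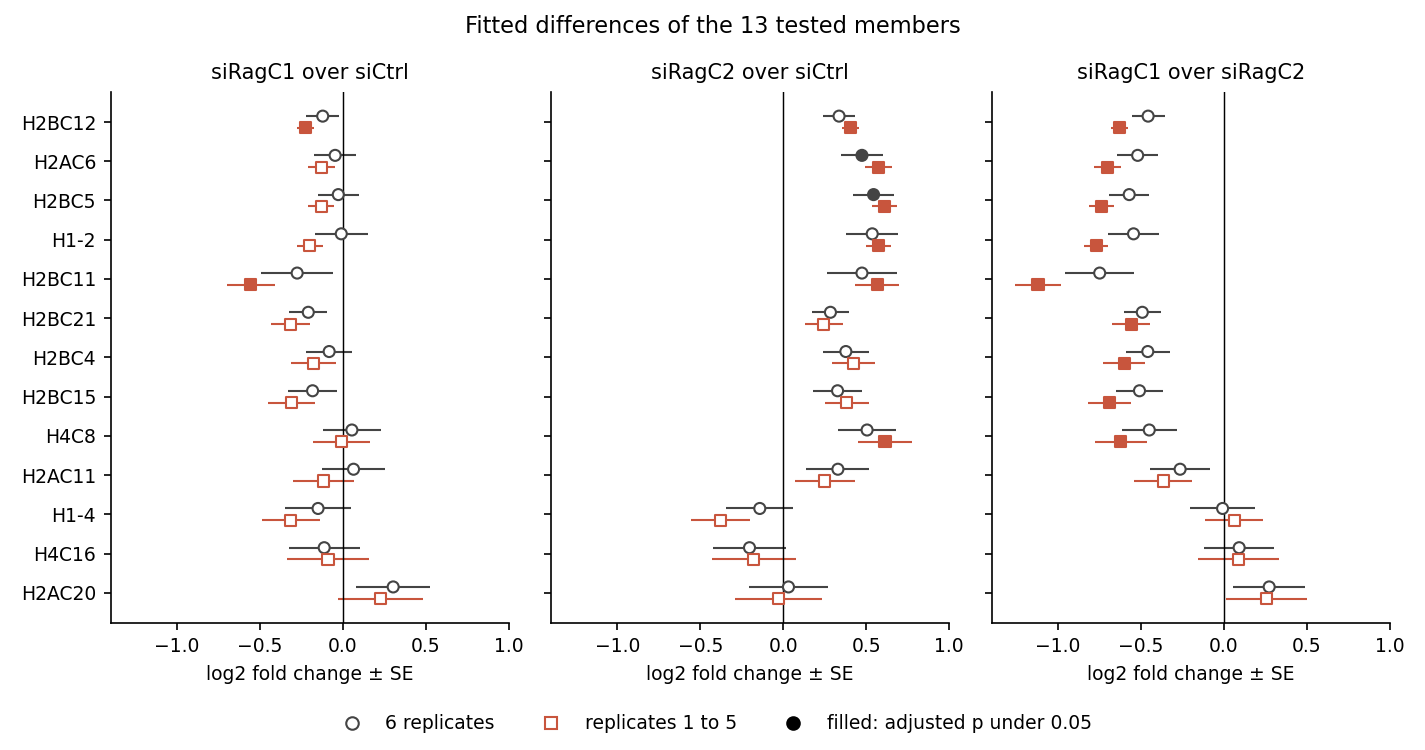
Fitted log2 fold changes ± SE (horizontal axis) of the 13 tested members for siRagC1 over siCtrl, siRagC2 over siCtrl and siRagC1 over siRagC2, from all 6 replicates (circles) and from replicates 1 to 5 (squares), filled where the edgeR adjusted p is under 0.05. In the panel of siRagC1 over siRagC2 the squares of 9 members are filled, from -1.12 for H2BC11 to -0.56 for H2BC21, and no circle is.

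**Figure D5:**
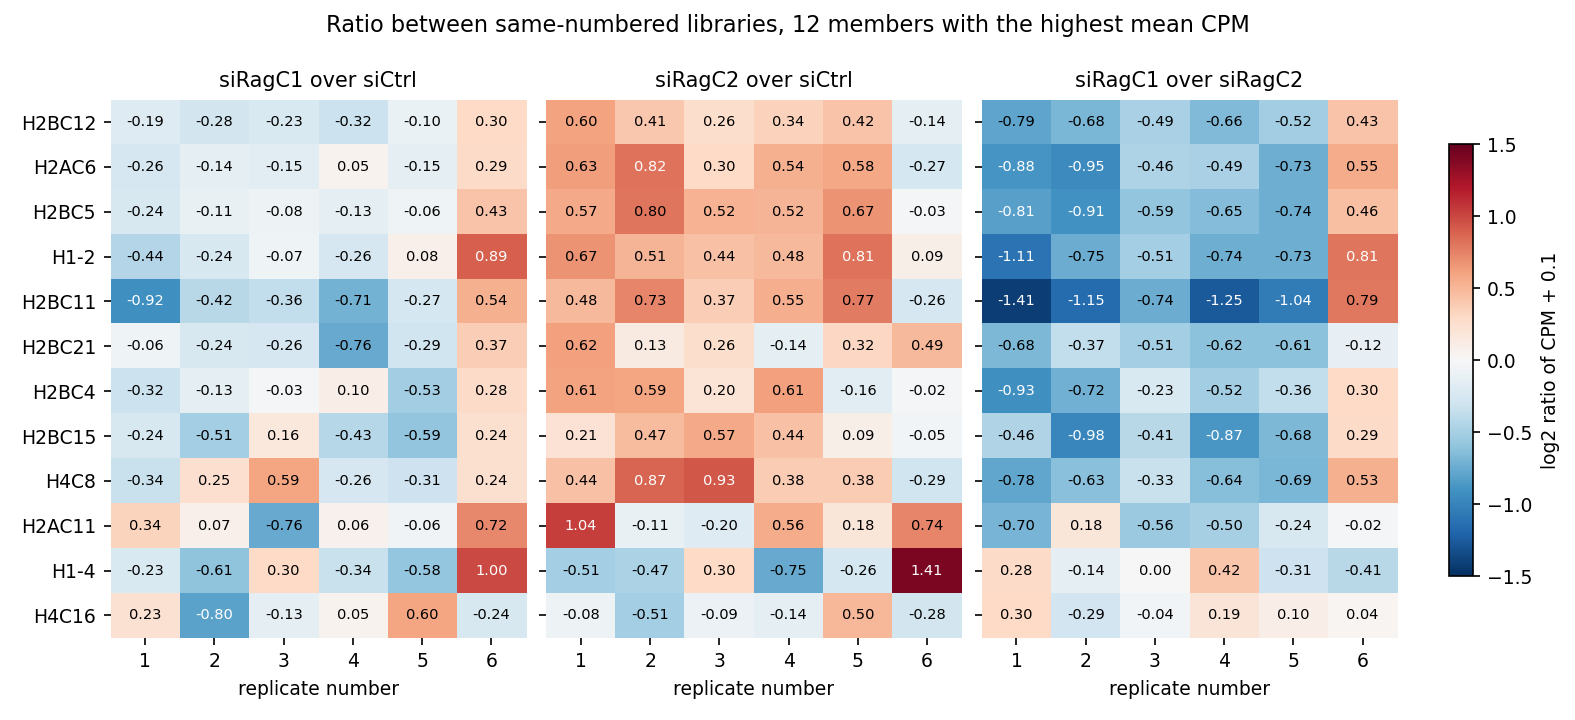
Log2 ratio of CPM + 0.1 between same-numbered libraries for the 12 members with the highest mean CPM, by replicate number, for siRagC1 over siCtrl, siRagC2 over siCtrl and siRagC1 over siRagC2 (red positive, blue negative, white 0). In the panel of siRagC1 over siRagC2 the first 9 genes are blue in replicates 1 to 5 and, except H2BC21, red in replicate 6.

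Among genes that act on histone messages, SLBP, NPAT and CASP8AP2 did not pass the test in any comparison. SLBP had a lowest, median and highest level of 76.9, 80.1 and 82.9 CPM in siRagC1 and 78.2, 79.0 and 82.7 CPM in siRagC2, against 79.6, 86.5 and 88.2 CPM in siCtrl. Its log2 fold change between siRagC1 and siRagC2 was 0.00 over all replicates (SE 0.036, adjusted p = 0.999) and -0.01 without replicate 6 (SE 0.036, adjusted p = 0.898). NPAT had log2 0.00 (SE 0.052, adjusted p = 0.986) and CASP8AP2, which works with NPAT in the nuclear histone locus bodies, had log2 0.03 (SE 0.061, adjusted p = 0.891) between the siRNAs without replicate 6. Of the 22 genes of histone pre-mRNA processing tested, 1 was lower with siRagC1 than with siCtrl over all replicates, beside 0.627% of all genes called lower. With siRagC2 0 passed over all replicates, and 5 had an unadjusted p under 0.05, beside 2833 of all 15307 genes. Between the siRNAs 0 passed with or without replicate 6. Without replicate 6, 3 of the 22 were lower with siRagC1 than with siCtrl and 2 were lower with siRagC2. The shares of all genes called lower were 3.46% and 3.17%. At an unadjusted p under 0.05, 0 of these 22 differed between the siRNAs over all replicates, beside 1187 of all 15307 genes. Without replicate 6 it was 3 of the 22, beside 2605 of all 15481 genes. Of the 20 histone chaperones tested, 0 passed in any comparison over all replicates. At an unadjusted p under 0.05 there were 5, 3 and 2 for siRagC1 against siCtrl, siRagC2 against siCtrl and siRagC1 against siRagC2, in that order. Of all 15307 genes, 2613, 2833 and 1187 reached it. Without replicate 6, 2 chaperones were lower with siRagC1 than with siCtrl, 1 was lower with siRagC2 than with siCtrl and 2 were lower with siRagC1 than with siRagC2. In the same order, 3.46%, 3.17% and 1.48% of all genes were called lower.

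Some genes of DNA replication were lower with each siRNA than with siCtrl, and none passed between the siRNAs. Of 39 S phase genes tested, 2 were lower with siRagC1 and 7 with siRagC2 than with siCtrl over all replicates (edgeR adjusted p under 0.05), beside 0.627% and 1.36% of all genes called lower. None of the 39 was called higher, and the medians were -0.16 and -0.14, beside 0.01 for all genes in both comparisons. Without replicate 6 there were 12 lower with siRagC1 and 8 lower with siRagC2, beside 3.46% and 3.17% of all genes. Between siRagC1 and siRagC2 0 of the 39 passed with or without replicate 6, and the median was -0.04 without replicate 6. At an unadjusted p under 0.05 there were 0 of the 39 over all replicates, beside 1187 of all 15307 genes. Without replicate 6 there were 4, beside 2605 of all 15481 genes. Their summed level was 2740 ± 292 CPM in siRagC1, 2807 ± 295 CPM in siRagC2 and 3084 ± 174 CPM in siCtrl (SD, n = 6 each). In replicate 6 it was 3230 CPM in siRagC1, 3083 CPM in siRagC2 and 3325 CPM in siCtrl. RRM2, the regulatory subunit of ribonucleotide reductase, had a log2 fold change of -0.25 with siRagC1 (SE 0.092, adjusted p = 0.161) and -0.16 with siRagC2 (SE 0.092, adjusted p = 0.367).

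No replication-independent histone gene, the variants made throughout the cell cycle from polyadenylated messages, passed in any comparison. Of 10 tested, 0 were called over all replicates or without replicate 6 by edgeR, with at most 3 at an unadjusted p under 0.05 in any of these comparisons. The 3 were between the siRNAs without replicate 6, beside 2605 of all 15481 genes. Their median log2 fold change was -0.02 with siRagC1 and 0.04 with siRagC2 over siCtrl, and -0.04 between siRagC1 and siRagC2. Their summed level was 1674 ± 73.3 CPM in siRagC1, 1733 ± 78.1 CPM in siRagC2 and 1717 ± 62.5 CPM in siCtrl (SD, n = 6 each). H3-3B, an H3.3 gene, had log2 -0.05 between siRagC1 and siRagC2 without replicate 6 (SE 0.039, adjusted p = 0.542), and H2AZ1 had -0.07 (SE 0.041, adjusted p = 0.384).

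The listed RNAs that carry no poly(A) tail were counted little in every library. The list does not cover all such RNAs, and its counts do not show whether poly(A) RNA was selected. The 25 matched genes of small nuclear, small nucleolar and related RNAs summed to 1.44 to 2.99 CPM in siRagC1, 1.95 to 3.16 CPM in siRagC2 and 2.23 to 4.04 CPM in siCtrl, with overlap of the 3 groups. Of 4 tested, 0 passed edgeR's test in any comparison over all replicates. An unadjusted p under 0.05 was reached by 3 for siRagC1 against siCtrl, beside 2613 of all 15307 genes, and by 0 in the other comparisons. Without replicate 6, 0 of 3 tested passed or had an unadjusted p under 0.05. The mitochondrially encoded genes summed to 47490 ± 13890 CPM in siRagC1, 50210 ± 8295 CPM in siRagC2 and 50400 ± 9927 CPM in siCtrl (SD, n = 6 each). The D1103 libraries held 53260 to 68800 CPM and the D1221 libraries 40080 to 49060 CPM, except siRagC1 replicate 4 with 25270 CPM. With or without replicate 6, 0 of the 15 genes passed edgeR's test or had an unadjusted p under 0.05. The part of library make-up in the histone gene results was not tested.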

How the data were processed

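Gene expression was measured by RNA sequencing in 18 libraries of MDA-MB-231 cells. The deposited table holds raw read counts per Ensembl gene ID, not normalized. Per the submitters' processing notes, the authors' processing used cutadapt 0.6.2 and STAR 2.7.6a with the genome build GRCh37 (hg19); neither the counting tool and its strand setting nor the annotation release is stated there. Genes of opposite strands that overlap can therefore not be told apart.

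Symbols came from reference tables and matched 51997 of the 57820 IDs. Counts were scaled with TMM factors and tested in R 4.3.3 with edgeR 4.0.16 (quasi-likelihood, robust, filterByExpr) on all 18 libraries with the code series as a term, with Benjamini-Hochberg adjustment over all 15307 genes tested and a threshold of 0.05. CPM values use the TMM factors of all 18 libraries. Ratios between same-numbered libraries used a pseudocount of 0.1 CPM. The fit was repeated without replicate 6, with DESeq2 1.42.0, other scaling, no filter, each code series alone, replicate number as a block and each library left out. The fits were tested on simulated data. No 2 libraries of a group were the same within sampling noise (chi-square over degrees of freedom 2.89 to 82.2).

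Libraries of the same number deviated together from their group means. The correlations were 0.123 to 0.499 for siRagC2 and siCtrl and 0.233 to 0.592 for siRagC1 and siRagC2. For siRagC1 and siCtrl they were 0.0801 to 0.624. The group means cover both code series, and libraries of different numbers were not compared. These values therefore cannot show whether the numbers pair the libraries.

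The members and the gene lists were chosen with earlier results of these data known. Named are the 12 members with the highest mean CPM, every member past the threshold, up to 4 genes a list with the highest mean CPM, SLBP, NPAT, CASP8AP2 and RRAGC. Promoters are from RefSeq (GRCh38.p14), stem-loops from GENCODE 29 transcripts, and no coordinates were converted between builds.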

Additional observations from a re-analysis of the deposited data

Results flagged for a closer look

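In a group of 6 libraries, one was picked out where its gap to the nearest other library as a share of the group's whole range exceeded Dixon's 95% critical value, which chance alone gives in about 1 of 20 groups. Of 39 groups looked at, 4 were picked out, and in each it was the library labelled siRagC1 replicate 6 as the highest of the siRagC1 libraries. The family was selected on earlier results that included replicate 6, so the rate of 1 in 20 does not apply and this is no independent support. The groups also overlap, since the summed level is made of the members and H2BC12 holds 44.5% of their counts. For the summed level of the members the gap was 0.786 of the range, with 151 CPM in that library, 119 CPM in the nearest and 110 CPM at the other end. For H2BC12 it was 0.689, with 69.3 CPM against 54.1 CPM in the nearest and 47.3 CPM at the other end. For H1-2 it was 0.693, with 17.7 CPM against 14 CPM and 12.4 CPM. For H2BC11 it was 0.716, with 5.07 CPM against 2.69 CPM and 1.74 CPM. The cause was not tested.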

How the results depend on the processing

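Another scaling (RLE factors) left the number of members called at 0 for siRagC1 against siCtrl, 2 for siRagC2 against siCtrl and 0 for siRagC1 against siRagC2. In that order DESeq2 called 0, 4 and 4, no filter on low counts 0, 6 and 7, no code series term 0, 0 and 0, the D1103 libraries alone 0, 5 and 6, the D1221 libraries alone 0, 0 and 0, and D1221 replicates 3 to 5 alone 0, 3 and 5. Chosen after seeing the data, leaving out only the siRNA libraries of replicate 6 gave 2, 6 and 8, and DESeq2 on replicates 1 to 5 gave 2, 7 and 9. Leaving out libraries or replicate numbers in turn gave 0 to 2, 0 to 6 and 0 to 9, with the highest without replicate 6. The cause was not tested. All genes called changed likewise, from 312, 495 and 0 to 7, 19 and 0 with no code series term. They came to 772, 995 and 25 with DESeq2, and to 34 to 1178, 42 to 1028 and 0 to 519 with libraries left out. With no filter they were 799, 843 and 219 of 31112 genes. Without the siRNA libraries of replicate 6 they were 852, 751 and 210, and with DESeq2 on replicates 1 to 5 they were 1611, 1371 and 827.

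With the replicate block 0, 1 and 0 members were called (864, 986 and 0 of all genes). With the replicate block on replicates 1 to 5 it was 2, 7 and 9 members (2068, 1694 and 1069 of all 15481 genes). The seventh was H2BC4 (edgeR adjusted p = 0.0338). The block changed no other call of a member over all replicates.

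These log2 differences changed sign. For siRagC1 against siCtrl, H1-2 was 0.003 with the replicate block; H4C8 was -0.05 in D1103 alone; in D1221 alone H2AC6 was 0.019, H2BC5 0.046, H1-2 0.162, H1-4 0.034 and H4C16 0.058; in D1221 replicates 3 to 5 H2AC11 was -0.316 and H4C16 0.181. H4C8 and H2AC11 were -0.058 and -0.099 without the siRNA libraries of replicate 6, 0 and -0.108 with the replicate block on replicates 1 to 5, and -0.014 and -0.11 with DESeq2 on replicates 1 to 5. For siRagC2 against siCtrl, H1-4 was 0.105 in D1221 alone and H4C16 0.044 in its replicates 3 to 5. For siRagC1 against siRagC2, H1-4 was 0.115 in D1103 alone, 0.029 in D1221 replicates 3 to 5, 0.062 without the siRNA libraries of replicate 6, and 0.05 and 0.06 with the block and DESeq2 on replicates 1 to 5. With libraries left out, siRagC1 against siCtrl ran from -0.13 to 0.021 for H2AC6, -0.129 to 0.038 for H2BC5, -0.198 to 0.079 for H1-2, -0.054 to 0.155 for H4C8, -0.115 to 0.246 for H2AC11 and -0.244 to 0.1 for H4C16, and siRagC1 against siRagC2 from -0.075 to 0.102 for H1-4 and -0.032 to 0.186 for H4C16. Members under about 1 CPM rest on few counts, which limits their precision.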
